A study of Mus musculus with 10 samples.

Results

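The 4 MYC/SMARCA4 tumors were compared with the 3 P7 cerebella of the same series, by the titles of the deposited count files, so that 7 of the 10 sequenced libraries enter the contrast. The tumors grew from granule cell precursors (GCPs), the dividing cells of the young cerebellum that give rise to granule neurons. GCPs were taken from Math1-creERT2::Smarca4fl/fl pups, which carry a tamoxifen-inducible Cre under the Math1 (Atoh1) promoter and floxed alleles of Smarca4, and received murine Myc and GFP by lentivirus before transplantation into the cerebellum of CD1nu/nu hosts, which lack T cells. The labels of tumors 1, 2, 3 and 4 give ages of 112, 96, 89 and 79 days. The cerebella were whole organs of Math1-creERT2::Smarca4fl/fl mice aged 7 days that had received 0.4 mg tamoxifen at P3. Both groups thus share the floxed alleles, the inducible Cre and the tamoxifen. They differ in the Myc construct, in transduction and transplantation, in the host, in age and in the share of cells without SMARCA4. These differences cannot be told apart in the comparison. In the cerebella the Cre acts in cells that use the Math1 promoter and not in the rest of the organ. In the tumors the study found SMARCA4 protein lost from all tumor cells by staining, with recombination shown by PCR. Tumor RNA came from punches of FFPE tissue, which take every cell in their area. All values are RNA-seq counts per gene from RNA depleted of ribosomal RNA.

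MYC is a transcription factor that dimerizes with MAX and binds the E-box CACGTG. It is best known for raising the expression of genes for ribosome production, nucleotide synthesis and growth. SMARCA4 is an ATPase of the BAF chromatin remodeling complex and is mutated in a subset of human medulloblastoma (MB), a tumor of the cerebellum. In the cerebellum at P7, GCPs divide under the influence of Sonic hedgehog, leave the cycle, extend axons and migrate inwards, while Bergmann glia and oligodendrocyte precursors expand at the same time.

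Levels are counts scaled to library size (CPM) with edgeR's TMM factors, and list levels are means of log2 CPM. Genes were tested with edgeR's quasi-likelihood test in 1 fit of all 10 libraries, and adjusted p-values were calculated over 29952 genes by the Benjamini-Hochberg method. A gene is said to rise or fall where its adjusted p was at most 0.05. Replicates are separate tumors and cerebella by their titles. The p-values rest on 1 estimate of spread per gene, pooled over the tumors, the cerebella and 3 libraries of a Sonic hedgehog MB model. They do not measure the spread of the tumors or of the cerebella alone.

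The libraries held 5663491 to 9352109 counts. Tumors differed far more from each other than cerebella did. Among 13262 genes of at least 3 log2 CPM on average, the median SD of log2 CPM was 0.593 over the tumors and 0.165 over the cerebella, and 94.0% of the genes varied more among the tumors. Tumor 1 and tumor 3 stood apart, in opposite directions. The root mean square difference of log2 CPM was 1.7 between tumors 1 and 3, 0.612 between tumors 2 and 4, and at most 0.38 between cerebella. Tumor 1 was about as far from the cerebella (1.26 to 1.33) as from tumors 2 and 4 (1.18 and 1.29). Mitochondrial genes took 6.36%, 2.94%, 2.89% and 2.29% of the counts of tumors 1 to 4 and 1.43% to 1.59% in the cerebella (two-sided exact permutation test, p = 0.0571, with 0.0286 as the smallest p that 4 against 3 libraries allow). Counts of list members are given with and without tumor 1 where they differ by over 1.5 times.

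Myc was found at 152, 368, 1587 and 1016 CPM in tumors 1 to 4 and at 13.2, 14.3 and 13 CPM in the cerebella. Every tumor lay above every cerebellum, although tumor 1 was far below tumor 3. The log2 fold change was 5.85 (standard error (SE) 0.75, adjusted p = 0.00194). With cerebellum 1, 2 or 3 left out, the adjusted p was 0.0214, 0.0192 and 0.0287. The construct carries murine Myc, and its transcripts and those of the gene on chromosome 15 (GRCm39, 61857227 to 61862223) are counted together. Its paralogue Mycn, a target of Sonic hedgehog signaling in GCPs, went the other way, with 1.24, 9.0, 9.23 and 4.03 CPM in the tumors and 94.5, 79.2 and 65.9 CPM in the cerebella. All 4 tumors lay below all 3 cerebella, and Mycn fell by 3.74 on the log2 scale (SE 0.47, adjusted p = 0.00192). Max, the partner of both, rose by 1.01 (adjusted p = 0.0403). Of the 12 genes of the MYC, MAX and MXD network, Myc and Max were the 2 that rose and Mycn the 1 that fell (median 0.32), whereas 6 rose without tumor 1. Without any 1 cerebellum, 1 rose and 1 fell.

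**Figure D1:**
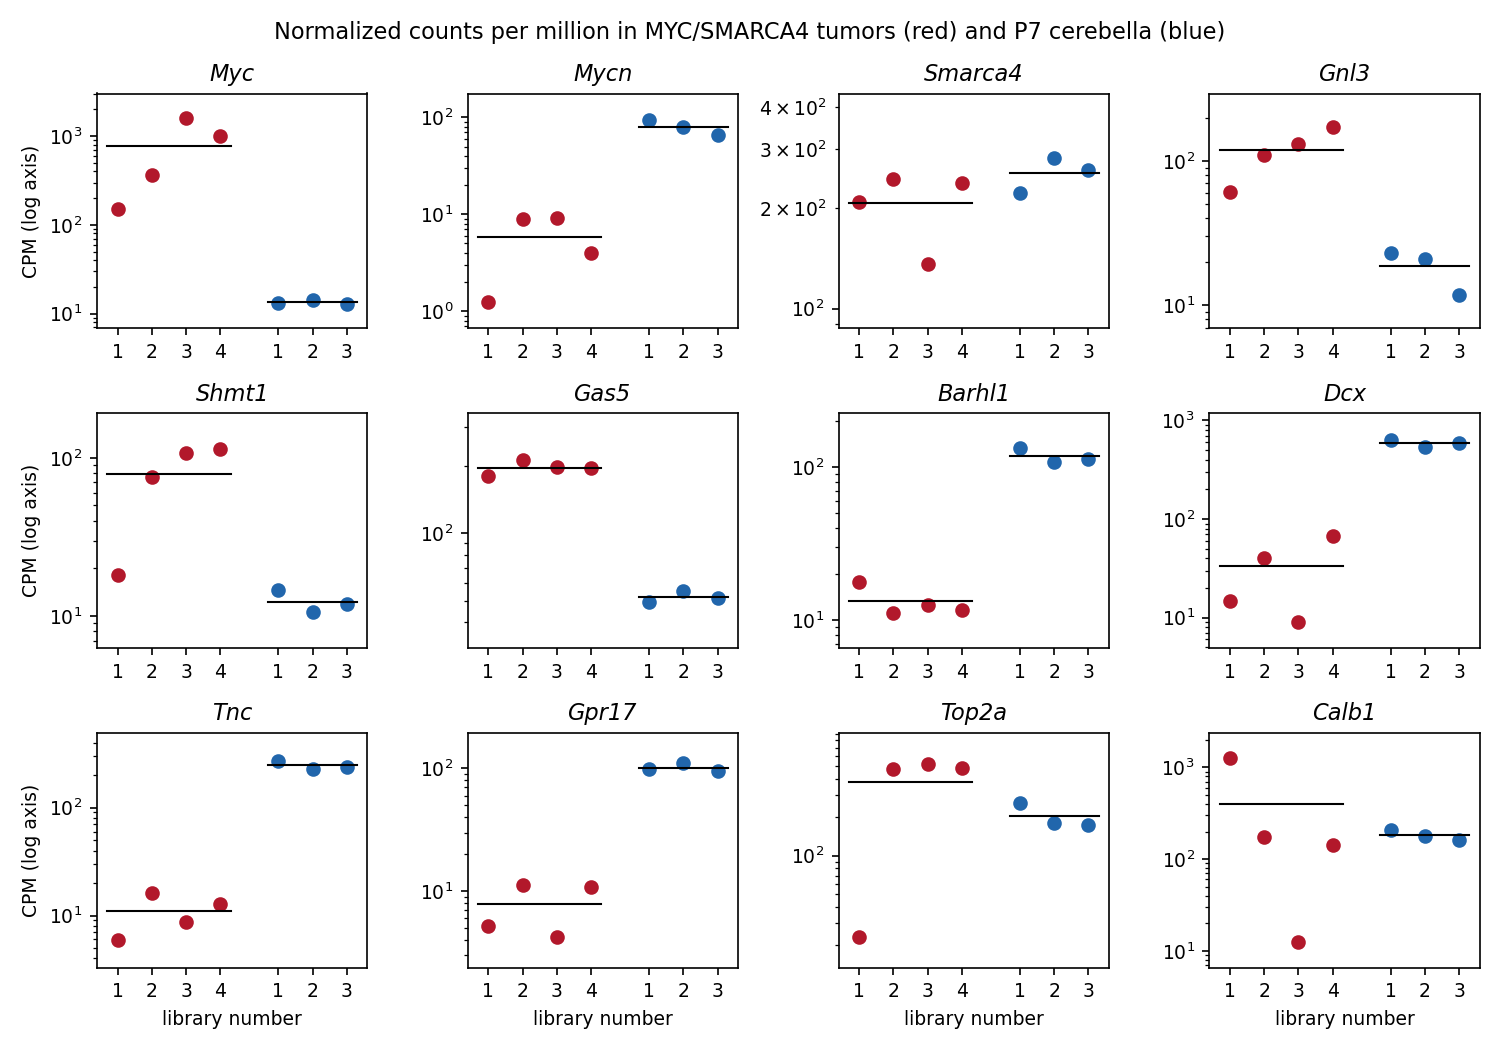
Normalized CPM (log axis) of 12 genes in each MYC/SMARCA4 tumor (red, libraries 1 to 4) and each P7 cerebellum (blue, libraries 1 to 3); black lines are group means. Myc is at 152 to 1587 CPM in the tumors and near 13 to 14 CPM in the cerebella, while Top2a is at 23.3 CPM in tumor 1 and at 474 to 520 CPM in the other tumors.

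Smarca4 had 208, 244, 136 and 238 CPM in the tumors and 221, 282 and 259 CPM in the cerebella. The groups overlapped, and the log2 fold change of -0.30 (SE 0.28, adjusted p = 0.495) was within the spread. Counts cover the whole gene (chromosome 9, GRCm39), which includes any transcripts of recombined alleles, and non-recombined cells of the punch or organ contribute as well. RNA counts do not measure the protein, which the study found lost from all tumor cells by staining. Among the 28 BAF subunits tested, 1 rose, 1 fell, and the median log2 fold change was 0.24. Without tumor 1, 6 rose and 3 fell, and without cerebellum 1, 2 or 3 edgeR called 0 (3 to 5 at an unadjusted p under 0.05), while DESeq2 called 2 higher and 1 lower. Smarcd2 rose by 1.25 (adjusted p = 0.0183). Dpf3, a subunit of neuronal BAF complexes, fell by 1.44 (adjusted p = 0.0234). The neuron-specific subunit Actl6b (BAF53b) had 33.7, 13.7, 4.34 and 8.54 CPM in the tumors against 34.2 to 41.4 CPM in the cerebella. Its log2 fold change was -1.32 (adjusted p = 0.124). It was -2.07 (adjusted p = 0.00137) without tumor 1 and -1.23 (adjusted p = 0.0261) without tumor 3. Smarcc1, a core subunit, had 70.9 CPM in tumor 1, 505 to 603 CPM in tumors 2 to 4 and 166 to 193 CPM in the cerebella. Its log2 fold change was 1.24 (adjusted p = 0.165), and 1.60 (adjusted p = 0.000509) without tumor 1.

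By the stricter thresholds (a change of 2.5 or more on the log2 scale with adjusted p not above 0.01), 27 genes rose (0.0901% of the genes tested) and 60 fell (0.2%). In each of these genes every tumor lay beyond every cerebellum. Irrespective of the test, every tumor lay above every cerebellum for 10.3% of all genes tested and below for 10.7%. At an adjusted p of at most 0.05, 1194 genes rose (3.99%) and 679 fell (2.27%). Without tumor 1, 3323 genes rose (11.1%) and 1493 fell (5.0%), and these include 1176 of the 1194 and all 679 of the genes called with it. The median log2 fold change of all genes was -0.05. The counts depended on which libraries were included. On leaving out cerebellum 1, 2 or 3, edgeR called 73, 32 and 39 genes higher and 151, 118 and 159 lower at an adjusted p of at most 0.05, and 0 genes rose by the stricter thresholds, with 3536, 3124 and 2728 higher genes at an unadjusted p under 0.05. In a fit of the 7 libraries alone 58 rose and 171 fell, with 0 strict higher calls and 2830 higher genes at an unadjusted p under 0.05. DESeq2 on all libraries gave 3142 higher and 1340 lower genes. Without tumors 2 or 4, 528 and 535 genes rose, and without tumor 3, 3381 rose and 6551 fell. Of the 100 genes named here that passed the test, 35 also passed without each of the 3 cerebella in turn, 37 in the fit of the 7 libraries alone, 99 with DESeq2 and all 100 without tumor 1. Among the 35 were Myc, Mycn, Gnl3, Gas5, Zfas1, Barhl1, Dcx, Islr2, Gpr17, Tnc and Col9a3. Shares of list members below are to be read against these backgrounds.

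**Figure D2:**
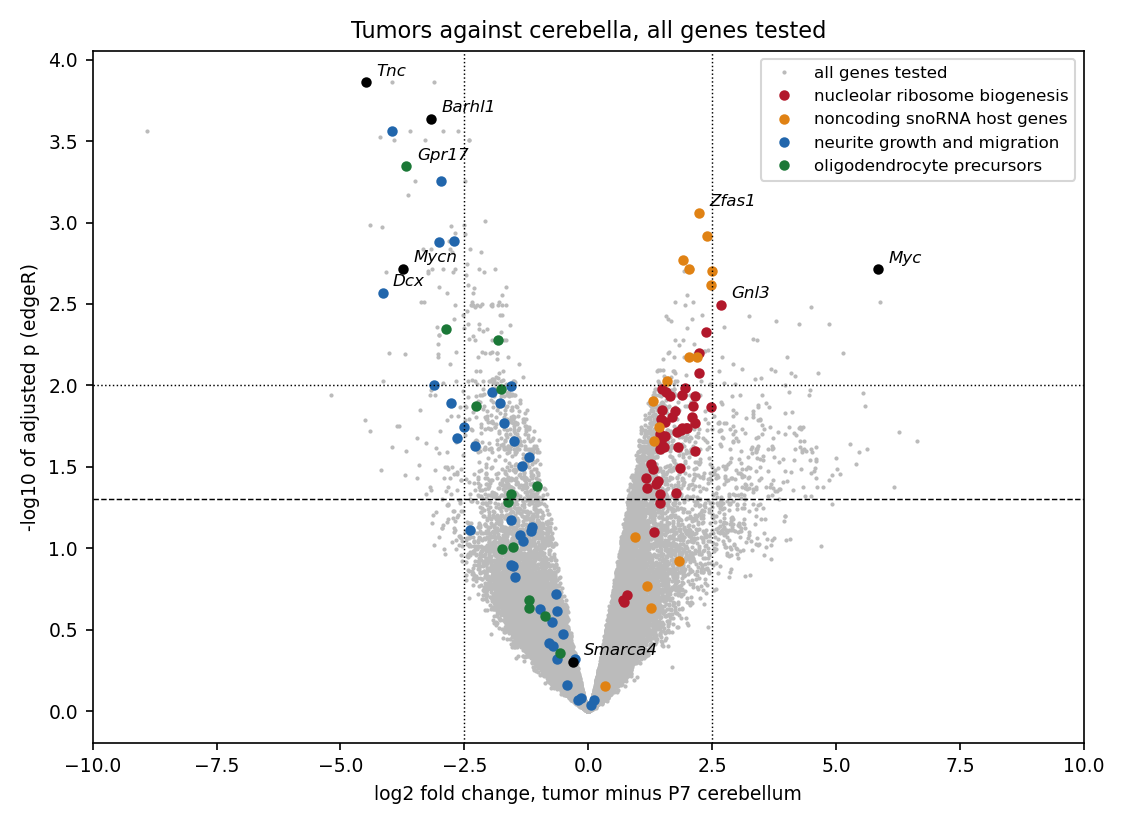
Each point is 1 of 29952 genes, with the log2 fold change (tumor minus P7 cerebellum) on the x axis and -log10 of edgeR's adjusted p on the y axis; dotted lines mark the stricter thresholds and the dashed line an adjusted p of 0.05. Genes of ribosome biogenesis (red) and snoRNA host genes (orange) lie on the right, and genes of neurite growth (blue) and oligodendrocyte precursors (green) on the left.

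Among the lists, nucleolar ribosome biogenesis had the highest share of members that rose with all libraries in the fit. Of 45 listed genes, all had a higher fitted level in the tumors, 40 rose and 5 did not pass the test, with a median log2 fold change of 1.66. Without tumor 1, 44 rose and the median was 1.84. With 1 cerebellum left out, 3, 2 and 1 of the 45 rose (42 had an unadjusted p under 0.05 each time), and 1 rose in the fit of the 7 libraries alone, at medians of 1.54 to 1.76, whereas DESeq2 called 42. On average the genes of the list had 5.05, 6.12, 6.23 and 6.7 log2 CPM in the 4 tumors in turn and 4.4 to 4.55 log2 CPM in the cerebella, with tumor 1 closest to the cerebella. Gnl3 (nucleostemin), a nucleolar GTPase of proliferating precursor cells, was found at 60.5, 110, 131 and 171 CPM in the tumors and at 22.9, 21.0 and 11.8 CPM in the cerebella. Even tumor 1 lay above each cerebellum, and Gnl3 rose by 2.67 (SE 0.38, adjusted p = 0.00319). Npm1, which encodes nucleophosmin, had 124, 362, 538 and 681 CPM against 66.9 to 87.2 CPM and rose by 2.48 (adjusted p = 0.0136). Ncl, which encodes nucleolin, reached 541 to 1366 CPM against 202 to 231 CPM and rose by 2.23 (adjusted p = 0.00633). Dkc1, the pseudouridine synthase of box H/ACA particles, rose by 2.38 (adjusted p = 0.00467). The core proteins of box C/D particles Nop56 (1.58), Nop58 (1.88) and Fbl (1.42), the last being the methyltransferase fibrillarin, rose as well, with adjusted p-values of 0.011, 0.0114 and 0.0386.

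Promoters of these genes were searched for CACGTG, which reads the same on both strands, in the RefSeq table of GRCm38.p6 (250 bases before to 50 after the annotated start). Of 40 genes of the list with a promoter in the table, 11 held the motif (27.5%). Among protein-coding genes of this table that rose, 136 of 661 (20.6%) held it, against 22 of 375 (5.87%) that fell and 1240 of 12405 that did neither. Across all 27025 genes of the table the share was 8.09%, and across protein-coding genes tested 10.4%. Other growth lists, described below, differed in this share. It was 30.8% for aminoacyl-tRNA synthetases (4 of 13), 26.9% for translation initiation factors (7 of 26) and 19.2% for nucleotide and one-carbon synthesis (5 of 26). It was 14.3% for snoRNA host genes (2 of 14), 13.3% for chaperones (2 of 15) and 12.5% for RNA polymerase I (2 of 16). The median GC content of the promoters was 61.7% for genes that rose and 63.0% for those that fell. The 5 promoters of the ribosome biogenesis list with the lowest p that hold the motif are printed 5′ to 3′ on the strand of the gene. They show where the motif lies, with CACGTG in capitals. In each of them it begins 15 to 37 bases downstream of the annotated start. A match is a description of the letters and no evidence of binding.
Utp20 (chr10:88826765-88827064, minus strand): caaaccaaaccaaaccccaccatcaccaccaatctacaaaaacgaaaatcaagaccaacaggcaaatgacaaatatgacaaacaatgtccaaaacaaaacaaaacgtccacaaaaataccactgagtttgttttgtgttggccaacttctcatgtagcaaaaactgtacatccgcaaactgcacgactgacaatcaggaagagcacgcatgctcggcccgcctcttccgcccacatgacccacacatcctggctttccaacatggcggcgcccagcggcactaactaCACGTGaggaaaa
Wdr43 (chr17:71615965-71616264, plus strand): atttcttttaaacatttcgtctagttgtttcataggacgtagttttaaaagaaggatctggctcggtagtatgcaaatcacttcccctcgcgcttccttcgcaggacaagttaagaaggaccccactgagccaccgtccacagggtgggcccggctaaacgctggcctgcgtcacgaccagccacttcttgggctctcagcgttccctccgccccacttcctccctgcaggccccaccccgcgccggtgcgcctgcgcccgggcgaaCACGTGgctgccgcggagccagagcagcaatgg
Pno1 (chr11:17211540-17211839, minus strand): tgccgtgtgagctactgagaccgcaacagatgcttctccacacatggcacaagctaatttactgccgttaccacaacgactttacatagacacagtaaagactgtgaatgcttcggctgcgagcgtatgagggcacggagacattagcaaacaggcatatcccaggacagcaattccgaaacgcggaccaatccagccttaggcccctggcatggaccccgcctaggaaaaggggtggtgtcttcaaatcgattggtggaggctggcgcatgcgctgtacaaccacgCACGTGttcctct
Utp4 (chr8:106893390-106893689, plus strand): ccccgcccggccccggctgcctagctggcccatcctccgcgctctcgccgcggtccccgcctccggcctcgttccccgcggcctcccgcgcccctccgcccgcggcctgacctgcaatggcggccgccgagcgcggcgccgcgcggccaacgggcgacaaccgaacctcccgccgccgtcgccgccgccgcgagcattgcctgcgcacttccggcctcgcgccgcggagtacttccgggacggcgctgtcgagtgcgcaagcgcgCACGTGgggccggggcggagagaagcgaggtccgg
Tsr1 (chr11:74897830-74898129, plus strand): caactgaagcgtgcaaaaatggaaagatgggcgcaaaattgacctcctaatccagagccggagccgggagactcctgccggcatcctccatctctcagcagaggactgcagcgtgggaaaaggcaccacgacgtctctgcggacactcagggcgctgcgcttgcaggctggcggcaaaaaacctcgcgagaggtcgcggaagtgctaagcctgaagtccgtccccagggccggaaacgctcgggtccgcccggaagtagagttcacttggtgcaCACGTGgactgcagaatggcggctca
Utp20, a scaffold of the small-subunit processome, had 80.1, 223, 192 and 290 CPM in the tumors and 38.1 to 43.6 CPM in the cerebella, and rose by 2.25 (adjusted p = 0.00835). Wdr43 rose by 1.95 (adjusted p = 0.0103) and Pno1, which acts late in the maturation of the small subunit, by 1.49 (adjusted p = 0.0105).

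Of 16 genes of RNA polymerase I and its factors, 8 rose and none fell, with a median of 1.02. With 1 cerebellum left out, 2, 1 and 0 rose (8 at an unadjusted p under 0.05 each time), and DESeq2 called 8. Polr1b, the second largest subunit, had 22.8, 93.2, 81.3 and 150 CPM in the tumors and 16.2 to 22.4 CPM in the cerebella. Tumor 1 was barely above the highest cerebellum, and Polr1b rose by 2.22 (adjusted p = 0.0207). Taf1d, a subunit of the selectivity factor SL1 that is also a host of snoRNAs, rose by 2.34 (adjusted p = 0.00613). Rrn3, which links the polymerase to SL1, rose by 1.14 (adjusted p = 0.0219).

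Noncoding host genes of snoRNAs, whose introns hold the guides of rRNA modification, rose in 12 of 17 cases, and all 17 had a higher fitted level (median 1.83, and 1.97 without tumor 1). Of these 17, 8, 7 and 6 rose when cerebellum 1, 2 or 3 was left out. Their mean level was similar in all tumors, although tumor 4 stood apart as high for Snhg1 (5.94 log2 CPM). Gas5 had 180, 213, 197 and 195 CPM in the tumors and 49.5, 54.9 and 51.2 CPM in the cerebella. The 4 tumors thus lay within a narrow range, and Gas5 rose by 1.92 (SE 0.24, adjusted p = 0.0017). Zfas1 had 58.0, 55.4, 55.3 and 57.7 CPM against 10.5 to 13.7 CPM and rose by 2.24 (SE 0.25, adjusted p = 0.000868). Snhg7 rose by 2.40 (adjusted p = 0.00121), Snhg4 by 2.49 (adjusted p = 0.00197) and Snhg1 by 2.03 (adjusted p = 0.00194). The mean of the list was 4.36 to 4.82 log2 CPM in the tumors and 2.98 to 3.01 log2 CPM in the cerebella. Reads of the embedded snoRNAs cannot be told apart from those of their hosts where the annotation overlaps.

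Genes that make nucleotides and their one-carbon units were the next group. Of 29 tested, all had a higher fitted level, 13 rose and none fell, with a median of 1.34. Without tumor 1, 25 rose, and without cerebellum 1, 2 or 3 edgeR called 0 (22 or 23 at an unadjusted p under 0.05), at medians of 1.27 to 1.36, while DESeq2 called 21. Shmt1, the cytosolic serine hydroxymethyltransferase, had 18.1, 76.0, 107 and 113 CPM in the tumors and 14.5, 10.6 and 11.8 CPM in the cerebella, and rose by 2.67 (SE 0.50, adjusted p = 0.0126). Cad, the enzyme that starts pyrimidine synthesis, had 56.3 CPM in tumor 1, which lay just below all 3 cerebella (57.4 to 73.3 CPM), and 303 to 450 CPM in tumors 2 to 4. It rose by 2.14 (adjusted p = 0.0324), and by 2.49 (adjusted p = 9.38e-05) without tumor 1. In purine synthesis, Ppat, which catalyzes the first committed step, rose by 1.73 (adjusted p = 0.016), Gart by 2.14 (adjusted p = 0.0129), Pfas by 2.05 (adjusted p = 0.0132), Paics by 1.38 (adjusted p = 0.0141) and Atic by 1.86 (adjusted p = 0.0254).

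In polyamine synthesis, 4 of 11 genes rose and the median was 0.36, and without cerebellum 1, 2 or 3 edgeR called 0 (5 or 6 at an unadjusted p under 0.05) and DESeq2 with all libraries 5. Spermidine synthase (Srm) had 26.0, 155, 171 and 260 CPM in the tumors and 23.1 to 25.8 CPM in the cerebella. Tumor 1 was barely above the highest cerebellum, and Srm rose by 2.67 (adjusted p = 0.0186). Odc1, the ornithine decarboxylase and a textbook target of MYC, had 27.3 CPM in tumor 1, 109 to 181 CPM in tumors 2 to 4 and 34.9 to 48.9 CPM in the cerebella. Its log2 fold change was 1.49 (adjusted p = 0.0767), and 1.82 (adjusted p = 0.000476) without tumor 1.

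Of 20 cytosolic aminoacyl-tRNA synthetases, which charge tRNAs with amino acids, 10 rose (median 0.99), with Vars at the top (1.74, adjusted p = 0.0105). Of 32 translation initiation factors, 10 rose (median 0.97), and Eif1a had 48.6, 105, 108 and 148 CPM against 13.8 to 26.9 CPM and rose by 2.41 (adjusted p = 0.00609). Of 20 cytosolic chaperonins and heat shock proteins, 9 rose (median 1.15), among them the chaperonin subunits Tcp1 (1.73, adjusted p = 0.00977) and Cct4 (1.52, adjusted p = 0.0135). Hspd1 and Hspa9, listed with them although their proteins act in mitochondria, rose by 2.25 (adjusted p = 0.0115) and 1.95 (adjusted p = 0.00319). None of these genes fell. Without tumor 1, 14 synthetases, 26 initiation factors and 16 chaperones rose. Without cerebellum 1, 2 or 3, edgeR called 0, 0 and 0 synthetases, 1, 0 and 0 initiation factors and 1, 1 and 1 chaperones, whereas 14 to 16, 20 to 23 and 14 to 15 had an unadjusted p under 0.05, and DESeq2 with all libraries called 14, 23 and 16. The medians without a cerebellum stayed at 0.94 to 1.02, 0.89 to 0.98 and 1.11 to 1.19. Of 23 genes of glycolysis, 7 rose (median 1.31), and 13 rose without tumor 1 (median 1.05). With cerebellum 1, 2 or 3 left out and in the fit of the 7 libraries alone, edgeR called 0 (14 at an unadjusted p under 0.05 each time), while DESeq2 called 15. Pkm, the pyruvate kinase, had 408 to 646 CPM in the tumors and 147 to 192 CPM in the cerebella and rose by 1.67 (adjusted p = 0.00884). Ldha and Hk2 had log2 fold changes of 1.71 (adjusted p = 0.0536) and 2.05 (adjusted p = 0.0635), and of 2.03 (adjusted p = 0.000533) and 2.43 (adjusted p = 0.000188) without tumor 1, in which both lay below all 3 cerebella.

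**Figure D3:**
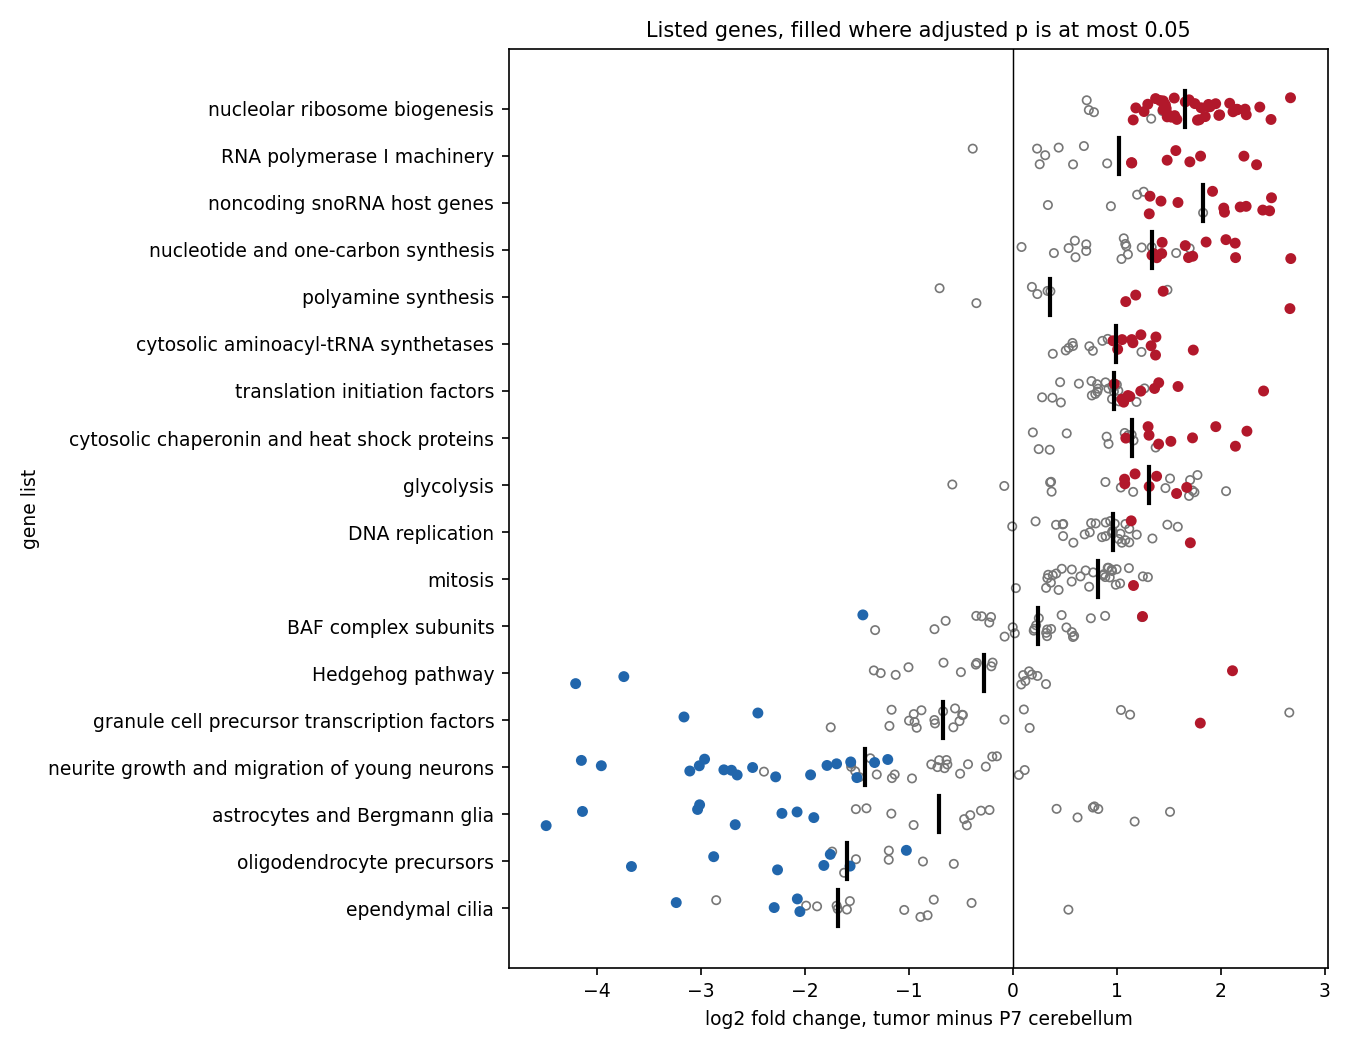
Log2 fold change (x axis, tumor minus P7 cerebellum) of every tested gene of 18 lists (y axis); filled points had an adjusted p of at most 0.05 (red higher, blue lower), open points did not, and black bars are medians. Growth lists lie to the right, with medians of 0.36 to 1.83, and lists of neurite growth, glia and ependyma to the left, with medians of -0.71 to -1.68.

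Cell cycle genes split the tumors. Of 30 genes of mitosis, all had a higher fitted level, but 1 rose (Anln, by 1.16, adjusted p = 0.0247), whereas 29 rose without tumor 1. Averaged over the list, levels were 2.85 log2 CPM in tumor 1, 6.17, 6.15 and 6.34 log2 CPM in tumors 2 to 4 and 4.97 to 5.40 log2 CPM in the cerebella. Top2a, topoisomerase II of dividing cells, had 23.3, 474, 520 and 483 CPM in the tumors and 257, 181 and 174 CPM in the cerebella. Tumors 2 to 4 thus lay above each cerebellum and tumor 1 far below. The log2 fold change was 0.88 (adjusted p = 0.408), and 1.28 (adjusted p = 0.00307) without tumor 1. Mki67 behaved alike, with 45.6 CPM in tumor 1, 712 to 939 CPM in tumors 2 to 4 and 398 to 523 CPM in the cerebella (0.42, adjusted p = 0.686; without tumor 1 0.81, adjusted p = 0.0406). Of 32 genes of DNA replication, 2 rose (Pola1 by 1.71 and Fen1 by 1.14, adjusted p = 0.0239 and 0.0367), and 27 rose without tumor 1. Mcm2, of the replicative helicase, had 16.1 CPM in tumor 1 and 151 to 211 CPM in tumors 2 to 4, against 46.1 to 60.5 CPM in the cerebella. Of 18 cyclins and CDK inhibitors of G1, Ccne2 rose by 1.30 (adjusted p = 0.031) and the CDK inhibitor Cdkn1c fell by 1.94 (adjusted p = 0.0166). Without tumor 1, 6 of the 18 rose and 3 fell. Without any 1 cerebellum edgeR called 0 genes of these 3 lists (1 or 2 genes of mitosis, 5 to 11 of DNA replication and 2 of G1 at an unadjusted p under 0.05), while DESeq2 called 1 and 5 higher in mitosis and DNA replication and 1 higher and 1 lower in G1. Ccnd2, the D cyclin of GCPs, ranged from 27.8 CPM in tumor 1 over 187 CPM in tumor 4 to 820 and 1672 CPM in tumors 3 and 2, around the cerebella at 680 to 1069 CPM.

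**Figure D4:**
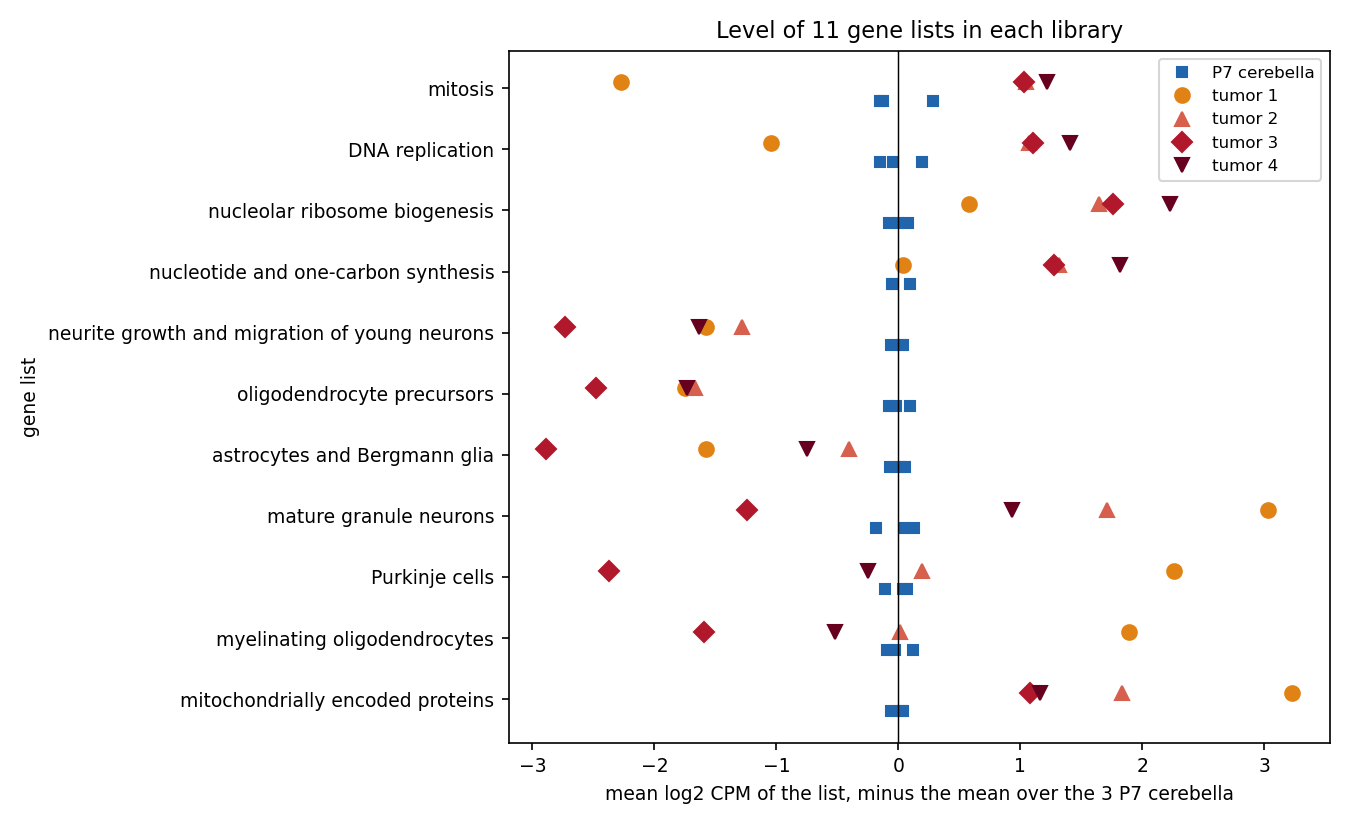
Mean log2 CPM of 11 gene lists in each library, shown as the difference (x axis) from the mean over the 3 P7 cerebella (blue squares); orange to dark red symbols are tumors 1 to 4. Tumor 1 is lowest for mitosis (2.85 log2 CPM) and highest for lists of mature neurons, myelin and mitochondrial transcripts, tumor 3 is lowest for the lists of neurons and glia, and all tumors lie below the cerebella for neurite growth, oligodendrocyte precursors and astrocytes.

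Many genes of young neurons were lower in the tumors. Of 40 genes of neurite growth and migration, 38 had a lower fitted level, 17 fell and none rose (median -1.42), and 25 fell without tumor 1. When cerebellum 1, 2 or 3 was left out, the numbers that fell were 7, 5 and 7. The mean of the list was 6.38, 6.67, 5.22 and 6.32 log2 CPM in the tumors and 7.89 to 7.99 log2 CPM in the cerebella. Dcx, the microtubule-binding protein doublecortin of migrating neurons, had 14.6, 40.7, 9.10 and 67.6 CPM in the tumors and 637, 538 and 589 CPM in the cerebella. The groups were far apart, and Dcx fell by 4.15 (SE 0.56, adjusted p = 0.0027). Islr2, a membrane protein of axon guidance, had 6.94, 12.8, 23.5 and 11.3 CPM against 190 to 228 CPM and fell by 3.96 (SE 0.37, adjusted p = 0.000273). Nhlh1 and Nhlh2, basic helix-loop-helix factors of newly formed neurons, fell by 3.11 (adjusted p = 0.00987) and 2.96 (adjusted p = 0.000559). Nav1, which steers microtubules in growth cones, fell by 3.02 (adjusted p = 0.00131), the kinesin Kif21b by 2.71 (adjusted p = 0.0013), Tubb2b by 2.5 (adjusted p = 0.0181) and Tubb3 by 1.56 (adjusted p = 0.01).

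Transcription factors of the granule cell lineage were less uniform. Of 25 tested, 2 fell and 1 rose (median -0.67), and 8 fell and 3 rose without tumor 1. Without any 1 cerebellum, 2 fell and 0 rose. Barhl1, a homeobox gene of GCPs and granule neurons (chromosome 2, GRCm39, 28797691 to 28806680), had 17.9, 11.2, 12.6 and 11.6 CPM in the tumors and 133, 109 and 114 CPM in the cerebella. All 4 tumors were low, including tumor 1, and Barhl1 fell by 3.16 (SE 0.27, adjusted p = 0.00023). Uncx, a further homeobox gene, fell by 2.45 (adjusted p = 0.00348). Mef2c, which acts in maturing neurons, rose by 1.80 (adjusted p = 0.0114). Atoh1, which defines GCPs, had 0.496, 24.7, 31.5 and 3.42 CPM in the tumors and 29.7, 17.4 and 19.5 CPM in the cerebella. Tumors 2 and 3 lay at or above the level of the cerebella and tumors 1 and 4 below, and the log2 fold change was -0.56 (adjusted p = 0.648). Zic1, with 900, 609, 272 and 281 CPM against 816 to 926 CPM, and Neurod1, with 366, 456, 252 and 89.7 CPM against 353 to 438 CPM, did not pass the test (adjusted p = 0.261 and 0.465).

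Of 20 genes of the Hedgehog pathway, 2 fell and 1 rose (median -0.28), and 4 fell and 2 rose without tumor 1 (median -0.02). Without any 1 cerebellum, 2 fell and 0 rose. Sfrp1, a secreted Wnt inhibitor that is induced by Hedgehog, had 3.72, 12.6, 4.76 and 5.37 CPM in the tumors and 136, 96.5 and 134 CPM in the cerebella and fell by 4.20 (SE 0.40, adjusted p = 0.000299). Mycn, described above, also fell. The direct targets Gli1 and Ptch1 did not follow. Gli1 had 8.43, 47.0, 58.2 and 112 CPM against 49.7 to 56.8 CPM (log2 fold change 0.12, adjusted p = 0.896), with tumor 1 below and tumors 3 and 4 above the cerebella. Ptch1 had 186, 266, 118 and 489 CPM against 233 to 248 CPM (0.16, adjusted p = 0.819). Cdon, a coreceptor of Hedgehog ligands, rose by 2.11 (adjusted p = 0.0235). Of 24 genes of the Notch pathway, 1 fell (Maml3, by 1.24, adjusted p = 0.0449) and none rose (median 0.10), and 4 rose without tumor 1 (median -0.20). Without any 1 cerebellum edgeR called 0 of these 24.

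The mean log2 CPM of markers of oligodendrocyte precursors and of markers of astrocytes and Bergmann glia was lower in every tumor. In bulk tissue, fewer cells of a type and less RNA per cell cannot be told apart. Of 14 markers of oligodendrocyte precursors, all had a lower fitted level and 7 fell (median -1.59), and 11 fell without tumor 1. When cerebellum 1, 2 or 3 was left out, the numbers that fell were 4, 3 and 4. Gpr17, a receptor of committed precursors, had 5.21, 11.2, 4.20 and 10.9 CPM in the tumors and 97.7, 110 and 94.3 CPM in the cerebella and fell by 3.67 (SE 0.37, adjusted p = 0.000451). Enpp6, a marker of newly forming oligodendrocytes, fell by 2.88 (adjusted p = 0.00453), Sox8 by 1.82 (adjusted p = 0.00528) and the lineage factor Olig2 by 1.76 (adjusted p = 0.0105). Of 24 markers of astrocytes and Bergmann glia, 8 fell and none rose (median -0.71), and 5, 4 and 4 fell without cerebellum 1, 2 or 3. The fitted level was lower for 17 of the 24 and higher for 7. Their summed level in tumor 2 (4320 CPM) was above that of the cerebella (4159 to 4268 CPM), and in the other tumors it was below. Tnc, a matrix glycoprotein of Bergmann glia (tenascin C), had 5.95, 16.2, 8.68 and 12.8 CPM against 270, 230 and 239 CPM and fell by 4.49 (SE 0.34, adjusted p = 0.000138). Fabp7, the fatty acid binding protein of radial and Bergmann glia, had 3.97, 27.2, 2.38 and 36.5 CPM against 309 to 314 CPM and fell by 4.14 (SE 0.72, adjusted p = 0.00942). Aqp4 and Aldh1l1, which mark astrocytes in general, fell by 3.01 (adjusted p = 0.0259) and 2.22 (adjusted p = 0.00666), and Gfap had 104, 177, 16.8 and 108 CPM against 230 to 302 CPM without passing the test (adjusted p = 0.122).

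Markers of the ventricular lining were low as well. Of 17 genes of ependymal cilia, 4 fell and none rose (median -1.68), with Foxj1, the master regulator of motile cilia, at 1.44 to 3.36 CPM in the tumors and 14.0 to 25.8 CPM in the cerebella (-3.24, SE 0.42, adjusted p = 0.00197). Of 18 genes of choroid plexus epithelium, 4 fell and none rose (median -1.40), among them the water channel Aqp1, which fell by 2.17 (adjusted p = 0.0172). Without tumor 1, 9 ependymal and 7 choroid plexus genes fell, and without any 1 cerebellum 1 of each. Whole cerebella hold the lining of the fourth ventricle and a punch need not, and the part of the dissection in these values was not tested. Of 29 genes of basement membrane and matrix, 7 fell and none rose (median -0.59). They were Tnc, the proteoglycan Ncan, Mfap4, Frem2 and the cartilage collagens Col9a3, Col9a2 and Col11a1. Col9a3 had 5.45, 6.66, 7.98 and 5.49 CPM in the tumors and 49.8, 54.3 and 61.9 CPM in the cerebella, a fall by 3.11 (SE 0.25, adjusted p = 0.000138) with little spread in either group.

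Markers of mature cells of the cerebellum varied widely among the tumors. Of 19 genes of mature granule neurons, 4 rose (median 1.84). Without tumor 1, 4 rose, 1 fell and the median was 0.92, and without cerebellum 1, 2 or 3 edgeR called 0 (10 at an unadjusted p under 0.05 each time), while DESeq2 called 10. Cbln3, a cerebellin of mature granule neurons, had 1760, 462, 42.8 and 226 CPM in the tumors and 30.1 to 35.8 CPM in the cerebella and rose by 4.28 (SE 0.95, adjusted p = 0.0239), and by 2.94 without tumor 1. Tumor 3 was close to the cerebella and tumor 1 far above them. Gabra6, a GABA receptor subunit found in granule neurons, had 388, 175, 15.5 and 78.1 CPM against 9.70 to 18.3 CPM and rose by 3.41 (adjusted p = 0.0278; 2.55 without tumor 1), with tumor 3 inside the range of the cerebella. Of 15 Purkinje cell genes none passed the test (median 0.77), whereas without tumor 1, 1 rose and 2 fell (median -0.71). Calb1, calbindin, had 1258, 175, 12.3 and 143 CPM in the tumors and 163 to 209 CPM in the cerebella, so that tumor 1 was above and tumor 3 below all cerebella. None of 15 genes of myelinating oligodendrocytes passed the test either (median 0.30, and -0.65 with 3 that fell without tumor 1), and Mbp had 2289, 385, 34.0 and 174 CPM against 512 to 654 CPM. The summed level of the 15 myelin genes was 4929, 1034, 197 and 631 CPM in tumors 1 to 4 and 1132 to 1308 CPM in the cerebella. That of the 15 Purkinje genes was 16720, 4503, 868 and 3106 CPM against 2851 to 3267 CPM. No defining marker of granule neurons, Purkinje cells or myelin was at 0 counts in any library. Tumor 1 was highest and tumor 3 lowest in each of these sums, and the part of mature cerebellum in the other results was not tested. Among the defining markers of other cell types, Tmem212 (ependymal cells) had 0 counts in tumors 1 and 2 and Cd3e (T cells) in tumor 2, and none was at 0 in all tumors. The 20 genes of microglia and macrophages summed to 153 to 611 CPM in the tumors and 429 to 572 CPM in the cerebella, and the 19 of endothelium and pericytes to 303 to 1080 CPM against 438 to 475 CPM. Of these 19, 1 fell and 0 rose, and without tumor 1, 6 fell and 1 rose. Of 13 genes of cerebellar interneurons and unipolar brush cells, 1 fell, and 5 fell without tumor 1. Without any 1 cerebellum edgeR called 0 genes of these last 2 lists.

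Some genes of embryonic growth and of position along the body axis rose, with their highest levels in tumors 2 to 4. Of 16 oncofetal RNA-binding and growth genes, 5 rose and none fell (median 1.40). Without tumor 1, 8 rose, and without cerebellum 1, 2 or 3 and in the fit of the 7 libraries alone edgeR called 0 (7 to 9 at an unadjusted p under 0.05), while DESeq2 called 7 higher and 1 lower. Igf2bp1, an mRNA-binding protein of embryonic tissue, had 10.9, 123, 126 and 275 CPM in the tumors and 10.7, 11.8 and 14.8 CPM in the cerebella. Tumor 1 lay within the range of the cerebella, and Igf2bp1 rose by 3.43 (SE 0.73, adjusted p = 0.0208; without tumor 1 3.82, adjusted p = 6.56e-05). Peg10, an imprinted gene derived from a retrotransposon, had 65.2, 716, 314 and 1267 CPM against 47.8 to 77.4 CPM and rose by 3.28 (adjusted p = 0.0244), again with tumor 1 inside the range of the cerebella. The imprinted noncoding RNA H19 had 63.7, 2972, 808 and 167 CPM against 27.0 to 54.9 CPM and rose by 4.60 (SE 1.08, adjusted p = 0.0291), and by 3.07 (adjusted p = 0.0481) without tumor 2. Its neighbour Igf2 had 160, 2185, 802 and 178 CPM against 246 to 300 CPM (1.63, adjusted p = 0.19), with the same order of tumors. Twist1, a mesenchymal transcription factor, had 4.71, 51.1, 54.9 and 9.39 CPM against 1.14 to 1.53 CPM and rose by 4.48 (SE 0.80, adjusted p = 0.0107), whereas the other 10 genes of its list did not pass, and 2 of the list rose without tumor 1. Without cerebellum 1, 2 or 3 and in the fit of the 7 libraries alone, edgeR called 0 of the list, including Twist1. DESeq2 with all libraries called 1.

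Of 36 Hox genes tested, 3 rose, and all 3 were of the HoxA cluster on chromosome 6. With cerebellum 1, 2 or 3 left out and in the fit of the 7 libraries alone, edgeR called 0 Hox genes (8 to 11 at an unadjusted p under 0.05), while DESeq2 with all libraries called 7 higher and 2 lower. Hoxa9 had 1.49, 50.8, 92.6 and 36.5 CPM in the tumors and 2.45, 1.75 and 5.42 CPM in the cerebella, Hoxa5 3.97, 48.2, 63.9 and 29.3 CPM against 1.53 to 4.91 CPM, and Hoxa7 1.49, 18.4, 33.2 and 16.5 CPM against 0.983 to 2.25 CPM. In all 3 genes, tumors 2 to 4 were above the cerebella and tumor 1 was at or below their level. Hoxa9 rose by 3.84 (SE 0.91, adjusted p = 0.0295), Hoxa5 by 3.41 (adjusted p = 0.0242) and Hoxa7 by 3.39 (adjusted p = 0.0247). Without tumor 1, 8 of 10 HoxA genes rose, from Hoxa2 to Hoxa10, and 0 of 10 HoxB, 0 of 7 HoxC and 0 of 9 HoxD genes passed the test. The summed level of HoxA genes was 17.4, 199, 315 and 159 CPM in tumors 1 to 4 and 19.9 to 35 CPM in the cerebella. The HoxB genes, with 93.3 CPM in tumor 4 and 4.32 to 34.4 CPM in the other tumors, overlapped the cerebella at 23.2 to 52.4 CPM. Annotated transcripts of Hoxa3 overlap Hoxa4, Hoxa5 and Hoxa6 on the same strand, so that counts of these genes are uncertain, whereas Hoxa7 and Hoxa10 overlap no other gene on their strand.

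**Figure D5:**
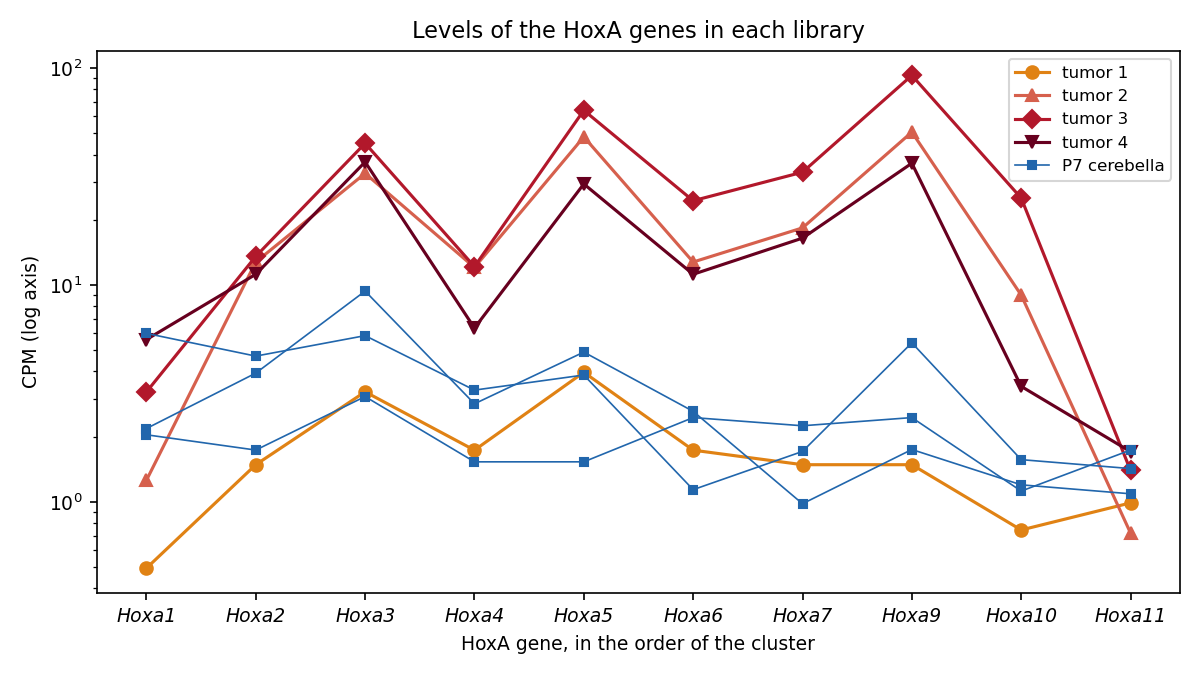
CPM (log axis) of 10 HoxA genes, in the order of the cluster on the x axis, in tumors 1 to 4 (orange to dark red) and the 3 P7 cerebella (blue). Tumors 2 to 4 lie above the cerebella from Hoxa2 to Hoxa10, with a peak of 92.6 CPM for Hoxa9 in tumor 3, while tumor 1 runs along the cerebella.

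Many of the genes that rose by the stricter thresholds were short or structural RNAs. Of the 27 strict calls that rose, 8 were protein coding on the nuclear genome, 9 were snoRNAs and 2 rRNAs, as against 49 protein-coding genes among the 60 that fell. Of all snoRNAs tested, 59 of 129 rose (45.7%), and of snRNAs 65 of 227 (28.6%). The median log2 fold change was 2.76 for snoRNAs and 2.53 for snRNAs, and 2.01 and 1.76 without tumor 1. Rn18s-rs5, which resembles 18S rRNA, had 8542, 5604, 2293 and 1532 CPM in the tumors and 200 to 294 CPM in the cerebella. Genes that resemble rRNA, with Lars2, took 1.43% to 2.01% of the counts in the tumors and 0.42% to 0.482% in the cerebella (exact permutation test, p = 0.0286). Of 11 mitochondrially encoded proteins, 6 rose (median 1.83, and 1.21 without tumor 1) and 1 rose without any 1 cerebellum, with ND5 at 3699 to 10400 CPM against 1482 to 1676 CPM (1.83, adjusted p = 0.0352). Since RNA was depleted of rRNA before sequencing, these shares also reflect that step, and its part in them was not tested.

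Among protein-coding calls, Egr1, an immediate early gene, had 77.6, 126, 33.2 and 51.8 CPM in the tumors and 9.20, 9.50 and 3.85 CPM in the cerebella and rose by 3.25 (SE 0.47, adjusted p = 0.00375). Junb rose by 1.85 (adjusted p = 0.0197), and 2 of 21 immediate early genes rose in all, 10 without tumor 1 and 1 without any 1 cerebellum. Fam107a, an actin-associated gene induced by stress, had 148, 241, 43.8 and 244 CPM against 13.6 to 17.7 CPM and rose by 3.40 (adjusted p = 0.00528). H2-K1, a class I histocompatibility gene, had 23.6, 27.2, 11.8 and 44.3 CPM against 3.17 to 5.62 CPM and rose by 2.7 (adjusted p = 0.00666). Asns, the asparagine synthetase induced by ATF4, rose by 1.74 (adjusted p = 0.00666), and 2 of 18 genes of the ATF4 response and 2 of 18 of the hypoxia response rose, as against 6 and 5 without tumor 1. Without cerebellum 1, 2 or 3 edgeR called 1, 0 and 0 genes of the ATF4 response and 0 of the hypoxia response. DESeq2 called 5 and 3. Of 15 p53 targets, Pmaip1 (2.18, adjusted p = 0.0204) and Aen (1.13, adjusted p = 0.0279) rose and Eda2r fell by 2.26 (adjusted p = 0.0215), and 6 rose and 2 fell without tumor 1. Without any 1 cerebellum edgeR called 0 p53 targets (5 to 7 at an unadjusted p under 0.05), while DESeq2 called 5 higher and 1 lower. Of 20 genes of microglia and macrophages, Lyz2 (2.93, adjusted p = 0.0199) and Spp1 (2.61, adjusted p = 0.0322) rose, while the T, B and natural killer cell markers other than Crtam did not pass, in hosts that lack a thymus. Without any 1 cerebellum edgeR called 0 genes of either list, while DESeq2 called 2 and 1. Crtam had 89.7, 34.9, 4.90 and 24.2 CPM against 2.85 to 4.04 CPM, in the order of the mature neuron lists. None of 13 genes of human Group 3 MB and photoreceptors passed the test (median -0.32), and the Group 3 gene Otx2 had 12.4, 115, 98.6 and 13.1 CPM against 30.7 to 34.1 CPM.

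Of the strict calls of lowest p that fell, 3 further genes were Glra2, Csmd2 and Ppp1r14c. Glra2, a glycine receptor subunit of immature neurons, had 1.24, 1.08, 1.40 and 1.83 CPM in the tumors and 21.5, 22.8 and 22.3 CPM in the cerebella (-3.96, SE 0.31, adjusted p = 0.000138). Csmd2, a large synaptic membrane protein, fell from 232 to 258 CPM in the cerebella to 36.9 to 48.6 CPM in the tumors (-2.63, SE 0.23, adjusted p = 0.000273). Ppp1r14c, an inhibitor of protein phosphatase 1, fell by 3.59 (adjusted p = 0.000273). Csmd2 spans over 300 kb. Of protein-coding genes that span over 300 kb, 10.4% fell and 2.52% rose, whereas of those that span 10 to 30 kb 2.04% fell and 5.56% rose.

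Among the 10 genes with the largest SD over the tumors, at an average of at least 3 log2 CPM, Olig3, a transcription factor of the rhombic lip from which GCPs arise, had 0.496, 93.2, 149 and 29.5 CPM in the tumors and 3.60 to 5.31 CPM in the cerebella. The histone gene H2ac10 had 0 counts in tumor 1, 75.2, 70.0 and 41.2 CPM in tumors 2 to 4 and 57.4 to 59.2 CPM in the cerebella. Igfbpl1, a gene of young neurons, had 0.744, 31.7, 36.4 and 69.2 CPM against 124 to 142 CPM. Tumor 1 was lowest for each of these 3. Others of the 10 went the other way, with tumor 1 highest and tumor 3 lowest, among them Calb1 and the 7SL RNA gene Rn7s1, which had 26500, 6622, 29.8 and 1414 CPM in the tumors and 289 to 3110 CPM in the cerebella.

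Differences by autosome were small. Medians of log2 differences from the cerebella over expressed genes, relative to the autosomal median of each tumor, lay between -0.13 and 0.19 in the tumors and between -0.07 and 0.07 in single cerebella. Chromosome 16 was the one with 0.10 or more in all 4 tumors (0.11, 0.10, 0.13 and 0.11, over 398 genes).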

How the data were processed

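RNA of FFPE tissue was depleted of rRNA (RiboCop), made into CORALL Total RNA-seq V2 libraries and sequenced single-end. The deposited counts per gene were made by the authors with FastQC 0.73, Trimmomatic 0.38.1, STAR 2.7.8a and featureCounts 2.0.1 (submitters' processing notes) on GRCm39; whether counting used strand is not given in the sources used here. The authors also deposited log2-scale values of a variance-stabilizing transformation (DESeq2 2.11.40.7), used as an alternative. Their tables of changed genes hold fold changes and p-values and were not used.

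Counts of all 10 libraries (4 tumors, 3 P7 cerebella, 3 SHH MB not analysed here beyond the shared estimate of spread) were fitted with edgeR 4.0.16 in R 4.3.3 (TMM factors, filterByExpr, glmQLFit and glmQLFTest), which kept 29952 of 50559 genes. The contrast was tumor minus cerebellum, with Benjamini-Hochberg adjustment. Log2 CPM used a prior count of 2. The fits were also run on simulated counts that gave every gene and group the same spread. The tumors here vary more than the cerebella, so that this run cannot show how the fits perform on these data. Genes named are Myc and Smarca4, members of 41 lists written by hand (828 genes, 817 tested), the 15 strict calls of lowest p in each direction, and the 10 genes of largest SD over tumors. Members and lists were chosen with earlier results of these data known, and lists are described by counts and medians without a test. The results of 2 genes are not reported here. Shares of counts were compared by an exact permutation test over 35 splits, two-sided. Gene positions are of GRCm39, and the annotation matched 25548 genes tested (85.3%) by symbol. Alternatives were DESeq2 1.42.0, limma 3.58.1, other scaling, filters and samples, and the replicate number as a block. Total counts of 5663491 to 9352109 per library mean that 1 CPM stands for fewer than 10 counts.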

Additional observations from a re-analysis of the deposited data

Results flagged for a closer look

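For 41 list means, 5 shares of counts and 131 named genes, the highest or lowest of the 4 tumors was compared with the others by the ratio of its gap to the range, against the 95% critical value of Dixon. Chance marks about 1 in 20 such groups where they are not picked by the same values. The named genes include some picked for a large SD over these tumors or for a low p, so that this rate does not hold for them. Here 4 lists, 1 share and 16 genes were marked. Tumor 1 stood apart in most of these cases, and the values are not independent of each other, since many are genes of the same lists. The mean level of tumor 1 was low for mitosis (2.85 log2 CPM), DNA replication (3.52) and the MYC, MAX and MXD network (5.28). In single genes tumor 1 was low for Top2a (4.56 log2 CPM), Mki67 (5.52), Mcm2 (4.03), Pola1 (5.57), Smarcc1 (6.15), Dkc1 (5.75), H2ac10 (-1.86), Hoxa2 (0.82) and Hoxa3 (1.81). It was high for Ccne2 (5.07 log2 CPM), Csmd2 (5.61) and the mitochondrial share of counts (6.36%). Tumor 3 was low for oligodendrocyte precursors (2.95 log2 CPM), Nav1 (5.25) and Max (6.08) and high for Foxj1 (1.86) and Tmem212 (1.55). Tumor 4 was high for Snhg1 (5.94 log2 CPM). The cause of these differences was not tested.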

How the results depend on the processing

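The number of calls depended on the processing more than the direction did. Myc (log2 fold change of 5.85) and Smarca4 kept their direction and their side of an adjusted p of 0.05 under all 32 alternatives run for them. Myc lost its strict call, at an adjusted p above 0.01, in the fit of only tumors and cerebella (0.0255), with the replicate block (0.0126) and without cerebellum 1, 2 or 3 (0.0214, 0.0192 and 0.0287). Of the list medians, 646 of 655 moved by less than the spread. Strict calls (27 higher, 60 lower) became 376 and 108 with DESeq2, 0 and 24 in a fit of only tumors and cerebella, and 78 and 143 with the threshold on the log2 fold change lowered to 1.5. Strict higher calls were 11 with at least 10 counts in each library, 13 with limma on the deposited VST values and 115 with no filter. At an adjusted p of at most 0.05 (1194 higher, 679 lower) the counts were 3142 and 1340 with DESeq2, 58 and 171 in the fit of only tumors and cerebella, and 776 and 1042 with at least 10 counts, and limma gave 758 higher. Leaving out 1 library gave 0 to 240 strict higher, 23 to 835 strict lower, 32 to 3381 higher and 118 to 6551 lower calls. The lowest counts came without a cerebellum and the highest of each kind without tumor 3. Without tumor 1 they were 128 strict higher, 101 strict lower, 3323 higher and 1493 lower calls. The cause was not tested. Counts of list members are given without tumor 1 or a cerebellum and not without tumor 3. Library sizes without mitochondrial and rRNA genes moved the median of all genes from -0.05 to -0.15 and the share of higher among all calls from 63.7% to 55.3%.

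Deviations of same-numbered tumors and cerebella had r = -0.052, -0.022 and 0.128, against -0.142 to 0.14 for other pairs of a tumor and a cerebellum. So few values cannot exclude a pairing. The labels name none, and the main fit used none. With the replicate number as a block, 3 genes rose and 18 fell by the stricter thresholds and 165 rose and 205 fell at an adjusted p of at most 0.05. With the block, the log2 fold changes of Gli1, Mbp and Ptch1 turned to -0.61, -0.63 and -0.36.

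Of 2041 alternatives for the other named genes, 353 lost and 38 gained the call and 17 turned the sign, all in genes that did not pass the test. With limma on VST values these were Calb1 (-0.29), Gli1 (-0.28), Mbp (-1.05) and Mki67 (-0.17), and with at least 10 counts Gli1 (-0.11), Mbp (-0.14) and Ptch1 (-0.16). Leaving out 1 library gave log2 fold changes of -0.72 to 1.36 for Calb1, -1.31 to 0.067 for Ccnd2, -0.42 to 0.49 for Gli1, -0.64 to 0.10 for H2ac10, -1.55 to 0.51 for Mbp and -0.40 to 0.31 for Ptch1, with the sign turned without tumor 1 for Calb1, Ccnd2, H2ac10 and Mbp, without tumor 3 or 4 for Gli1 and without tumor 4 for Ptch1. Depth limits genes near 1 CPM, such as those of ependyma and HoxA in tumor 1.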
